A study of Rattus norvegicus with 24 samples.

Results

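The receptors of oncostatin M and of the other cytokines of the interleukin-6 (IL-6) family were followed through the blood vessels and the full tissue of the rat retina and brain. The 8 genes are Osmr, Il6st, Lifr, Il6r, Il11ra1, Cntfr, Socs3 and Stat3. They were chosen by name, as the receptor chains of the family with the transcription factor and the feedback inhibitor of their pathway. The choice was made with earlier results of these data known, so counts over the 8 genes are not independent of the data. Each was found as 1 transcript cluster among the 18166 genes tested. The authors used 6 male Wistar rats aged 12 weeks, and describe the microvessels of both organs as coming from the same rats. The 4 kinds of sample were microvessels of the retina (RMVs), full retinal tissue (RT), microvessels of the brain (BMVs) and full brain tissue (BT). With each kind 6 Affymetrix arrays (Rat Gene 2.0 ST) were hybridized. The rats carried no transgene and received no experimental treatment that the labels or the methods name. Microvessels were obtained mechanically, by homogenizing frozen sections, spinning them through dextran and collecting vessels on a nylon mesh, so that each preparation holds all cells of the vessel wall and whatever adhered to it. Full tissue came from sections of the same organs that were set aside before homogenizing.

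Cytokines of the IL-6 family signal through a shared receptor chain, gp130, the product of Il6st. Specific chains join it. The oncostatin M receptor (Osmr) and the leukemia inhibitory factor receptor (Lifr) have signaling tails of their own, whereas the receptors of IL-6 (Il6r), IL-11 (Il11ra1) and ciliary neurotrophic factor (Cntfr) bind their ligand and hand it to gp130. Janus kinases on the tails then phosphorylate STAT3, and STAT3 induces SOCS3, which blocks gp130. In the brain and retina the family is known for the reactive response of glia to injury, for the support of neurons and for inflammatory activation of endothelial cells.

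All 8 genes lay above the first quartile of the mean signals of all genes, which was at 5.73 on the log2 scale. This holds for the mean over all arrays and not for every group, since the group means of Osmr in BT (5.43) and of Socs3 in RT (5.42) and BT (5.39) lay below it. The table gives no detection call, so these 3 levels are not shown to be above background. The deposited signals are log2 values and the arrays differ in level. The median of an array was 6.76 to 6.83 in RMVs and 6.10 to 6.22 in RT. In the brain it was 6.48 to 6.55 in BMVs and 5.81 to 5.95 in BT. The log2 fold change of the median gene was thereby 0.33 for RMVs against RT and 0.30 for BMVs against BT. Quantile normalization of all arrays put these medians at -0.15 for both pairs, and centring each array on its own median put them at -0.32 for RMVs against RT and -0.31 for BMVs against BT. A gene was called at a fold change of at least 2 (1 on the log2 scale) with an adjusted p below 0.05 by limma over all genes, and calls that end under another scaling are given beside the value.

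The labelled compartments were checked against markers of their cells. All 12 measured endothelial and all 10 pericyte genes were called higher in the microvessels of either organ than in its tissue. The mean signal of the 8 photoreceptor genes was 11.98 to 12.36 in RMVs and 12.23 to 12.38 in RT, with 0 of 8 called. On the deposited scale RMVs thus held photoreceptor RNA at close to the level of full retina. The median log2 fold change of these genes was -0.03, beside 0.33 over all genes. From their earlier study with the same isolation, the authors report that photoreceptor markers were depleted in the microvessels. Of 10 neuron genes, 4 were called lower in RMVs than in RT and 10 in BMVs than in BT. The mean of 10 fibroblast genes was 6.96 to 7.44 in RMVs and 5.92 to 6.03 in RT. In the brain it was 9.76 to 10.12 in BMVs and 6.86 to 7.13 in BT. The mean of 7 perivascular macrophage genes was 6.27 to 6.44 in RMVs and 5.10 to 5.32 in RT. In the brain it was 8.47 to 8.82 in BMVs and 5.82 to 6.05 in BT. The part of these cells in the results for the receptors was not tested. A lower signal in such mixed samples can come from fewer cells of a type or from less RNA per cell, which cannot be told apart.

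A pair of arrays stood apart, those numbered 5 in RMVs and in RT. The signal of Rpe65, a gene of the retinal pigment epithelium, was 8.54 in RMV array 5, against 6.56 to 7.11 in the other RMV arrays, and 9.57 in RT array 5, against 6.46 to 7.37 in the other RT arrays. Gfap, a filament gene of astrocytes and reactive Müller glia, was at 7.84 in RMV array 5, against 6.55 to 7.57 in the others, and at 8.96 in RT array 5, against 7.22 to 8.18. This was noticed after the values were seen, and the labels do not say that a number stands for an animal. For several results the values without these arrays are given as well.

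Osmr and Lifr are neighbours on rat chromosome 2, where they point away from each other with 1 gene between them, a ribosomal protein pseudogene. Their promoters are shown because these genes were the members most enriched in microvessels. Both sequences are the 250 bases before the gene start in RefSeq (assembly GRCr8). The capitals mark matches to TGANTCA, letters like those of an AP-1 element, and to GGGCGG or its reverse complement CCGCCC, the GC box.
Osmr, minus strand, chr2:57688562-57688811: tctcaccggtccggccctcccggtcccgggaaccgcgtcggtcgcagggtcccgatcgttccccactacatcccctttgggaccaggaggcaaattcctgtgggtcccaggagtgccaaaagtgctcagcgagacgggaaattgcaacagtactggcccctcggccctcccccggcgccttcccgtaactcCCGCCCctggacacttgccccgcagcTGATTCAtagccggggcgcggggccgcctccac
Lifr, plus strand, chr2:57963139-57963388: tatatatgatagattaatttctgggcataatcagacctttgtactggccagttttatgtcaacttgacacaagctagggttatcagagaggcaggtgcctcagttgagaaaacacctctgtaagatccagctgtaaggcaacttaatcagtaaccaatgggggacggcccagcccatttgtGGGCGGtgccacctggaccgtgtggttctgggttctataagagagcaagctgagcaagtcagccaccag
In the Osmr sequence TGATTCA lies 33 to 27 bases before the start and CCGCCC 59 to 54 bases before it. In the Lifr sequence GGGCGG lies 69 to 64 bases before the start. RefSeq gave such a sequence before the annotated start for 6 of the 8 genes, all but Il11ra1 and Cntfr. Whether these starts are the ones used in the retina or brain was not tested, so a sequence may miss the promoter in use. On both strands TGANTCA was present in 1 of these 6 and in 6.34% of all 33469 promoters of the same length, and GGGCGG in 3 of 6 and 30.5%. The palindrome TTCNNNGAA, which STAT3 can bind, was present in 0 of 6 and in 7.67% of all promoters. These matches describe the letters of the sequence and are not binding sites.

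Over the 8 genes, 3 were called higher and 0 lower when RMVs were set against RT, where 10.3% of all genes were called higher and 0.947% lower. In BMVs against BT 5 were higher and 1 lower, where 16.3% and 10.5% of all genes were. Between RMVs and BMVs 0 were higher and 1 lower, with 5.72% and 5.25% of all genes. Between RT and BT 0 were called either way, with 6.29% higher and 11.1% lower over all genes, and for the difference in enrichment 0 were higher and 1 lower, with 10.4% and 5.15%. Quantile normalization gave 2 higher and 0 lower in the retina, beside 5.14% and 5.05% of all genes, and 5 higher and 1 lower in the brain, beside 9.91% and 13.5%. Under centring these counts were 1 and 1 in the retina, beside 3.76% and 10.6% of all genes, and 2 and 1 in the brain, beside 7.67% and 21.3%.

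The median log2 fold change of the 8 genes was 0.73 in RMVs against RT and 1.47 in BMVs against BT, beside 0.33 and 0.30 over all genes. It was -0.29 in RMVs against BMVs, 0.30 in RT against BT and -0.69 for the difference in enrichment, beside 0.08, 0.02 and 0.07 over all genes. All RMV arrays lay above all RT arrays for 5 of the 8 genes and below them for 1, beside 42.6% and 10.2% of all genes. All BMV arrays lay above all BT arrays for 7 and below them for 1, beside 40.8% and 21.9% of all genes. RMV arrays lay wholly above BMV arrays for 1 gene and below them for 4, beside 25.4% and 21.5%, and RT arrays wholly above BT arrays for 2 and below them for 1, beside 22.0% and 26.7%.

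Osmr showed the largest difference of the 8 genes between vessels and tissue. Its signal had a lowest, median and highest value of 9.76, 10.21 and 10.62 in RMVs and of 5.73, 6.15 and 6.90 in RT. In BMVs these values were 10.05, 10.32 and 10.49, and in BT 5.14, 5.32 and 5.93. Every microvessel array lay far above every tissue array. Osmr was called higher in RMVs than in RT with a log2 fold change of 4.0 (adjusted p = 2.78e-17 from limma, standard error 0.166), or 16.0-fold. In BMVs against BT the log2 fold change was 4.87 (adjusted p = 9.23e-20 from limma), or 29.2-fold against a BT level that is not shown to be above background. Both calls held under either other scaling, at 3.88 and 3.36 in the retina and 4.34 and 4.26 in the brain (log2, quantile and centred).

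Between both kinds of microvessels Osmr differed by less than the spread of the arrays. The mean signal was 10.20 ± 0.30 in RMVs and 10.30 ± 0.16 in BMVs (SD, n = 6 arrays each), and the log2 difference of -0.10 (adjusted p = 0.602 from limma) had a 95% interval of -0.44 to 0.24 and turned to 0.02 after quantile normalization. The tissues differed more, with 6.20 ± 0.44 in RT and 5.43 ± 0.31 in BT (SD, n = 6), a difference of 0.77 (adjusted p = 2.03e-04 from limma) that stayed below 2-fold and in which the arrays overlapped. Enrichment in microvessels was smaller in the retina by 0.87 (adjusted p = 0.00249 from limma), also below the threshold and dependent on the same BT level. The order of the levels was BMVs and RMVs, which could not be separated, then RT, then BT.

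**Figure D1:**
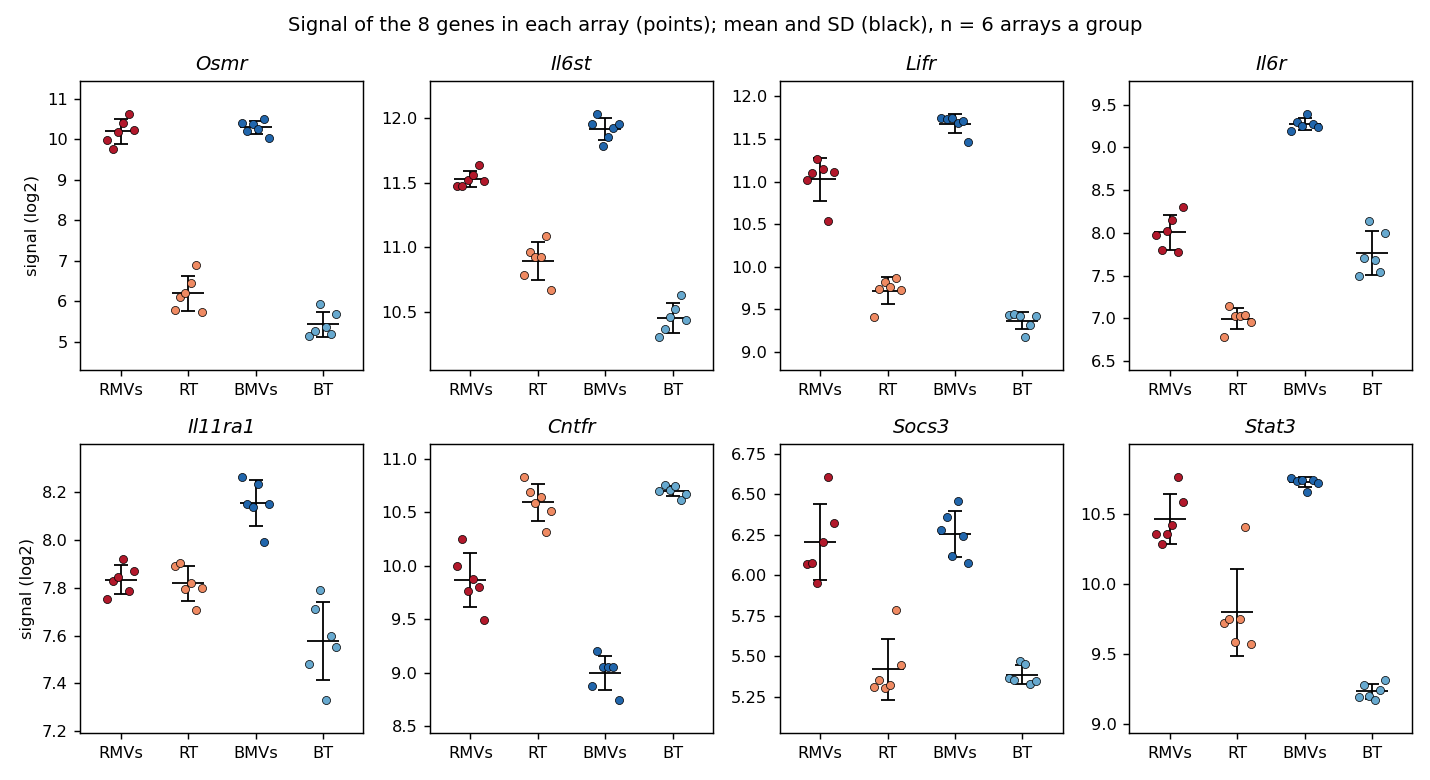
Signal (log2) of each of the 8 genes in the 6 arrays of RMVs, RT, BMVs and BT, with each point an array and the black lines the mean and SD; the vertical axes differ between panels and do not start at 0. Osmr lies between 9.76 and 10.62 in RMVs and between 5.73 and 6.90 in RT, and Cntfr is the gene whose microvessel arrays lie below the tissue arrays in both organs.

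Il6st, the shared signaling chain, was called higher in BMVs than in BT and stayed below 2-fold in the retina. Its lowest, median and highest signal was 11.47, 11.51 and 11.64 in RMVs and 10.67, 10.92 and 11.09 in RT. It was 11.79, 11.94 and 12.03 in BMVs and 10.31, 10.45 and 10.64 in BT. The arrays of the 4 groups did not overlap at all, in the order BMVs, RMVs, RT and BT. In BMVs against BT the log2 fold change was 1.46 (adjusted p = 7.78e-17 from limma), 2.74-fold, which centring reduced to 0.85 and below the threshold. In RMVs against RT it was 0.63 (adjusted p = 6.04e-09 from limma), below 2-fold, and centring of the arrays turned it to -0.00889.

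The difference between the organs could be tested directly for Il6st. Enrichment was 0.82 smaller in retina than in brain (log2, adjusted p = 4.18e-08 from limma), short of 2-fold. RMVs lay 0.39 below BMVs (adjusted p = 1.80e-05 from limma), whereas RT lay 0.44 above BT (adjusted p = 2.64e-06 from limma).

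Lifr, the chain that serves leukemia inhibitory factor and, with Cntfr, ciliary neurotrophic factor, was called higher in microvessels of both organs. Its signal had a lowest, median and highest value of 10.54, 11.10 and 11.26 in RMVs and 9.41, 9.75 and 9.87 in RT. In BMVs it was 11.47, 11.72 and 11.75, and in BT 9.17, 9.42 and 9.44. All RMV arrays lay above all RT arrays, and all BMV arrays lay above those of every other group. The log2 fold change was 1.31 in the retina (standard error 0.0946, adjusted p = 3.34e-12 from limma), 2.48-fold, and 2.32 in the brain (adjusted p = 4.16e-18 from limma), 4.98-fold. Centring of the arrays left 0.67 in the retina, below the threshold, and 1.71 in the brain.

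Lifr was also the only one of the 8 genes called for a difference in enrichment between the organs. This difference was -1.01 (log2, retina minus brain, standard error 0.134, adjusted p = 3.57e-07 from limma), just past the threshold. The lowest RMV array was number 5, at 10.54 against 11.02 to 11.26 in the others, and without both retinal arrays numbered 5 the difference was -0.88 and no longer called. It also fell short without any one of RMV array 5 (-0.91), RT arrays 3 (-0.99), 4 (-0.998) and 5 (-0.98), BMV arrays 1 (-0.99), 2 (-0.996) and 3 (-0.99), or BT arrays 4 (-0.97) and 5 (-0.99), 9 of the 24. RMVs lay 0.65 below BMVs (adjusted p = 1.09e-06 from limma) with no overlap between arrays, and RT lay 0.35 above BT (adjusted p = 0.00175 from limma) with overlap.

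**Figure D2:**
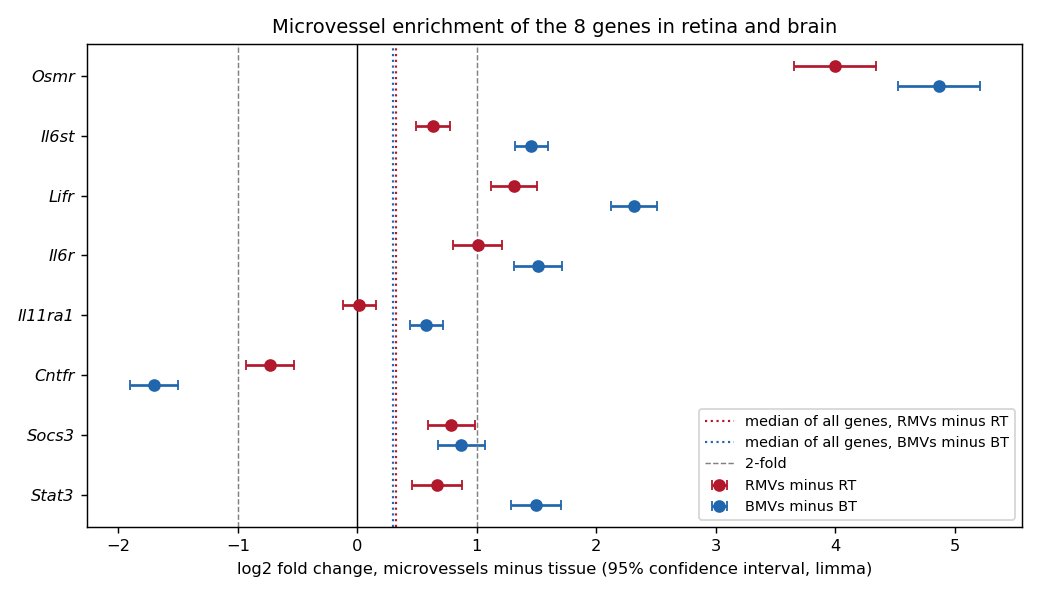
Log2 fold change of the 8 genes in RMVs against RT (red) and BMVs against BT (blue), with 95% confidence intervals from limma; dashed lines mark 2-fold and dotted lines the median of all genes, at 0.33 in the retina and 0.30 in the brain. Osmr lies at 4.0 and 4.87, Cntfr at -0.73 and -1.70, and the intervals of both organs lie apart for 7 of the 8 genes, the exception being Socs3.

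Of the chains that bind ligand without a signaling tail of their own, Il6r was enriched in both organs and was lower in the retina than in the brain. Its lowest, median and highest signal was 7.77, 8.0 and 8.31 in RMVs and 6.78, 7.03 and 7.14 in RT. In BMVs it was 9.19, 9.26 and 9.39, and in BT 7.49, 7.70 and 8.14. BMVs stood alone at the top, and RMVs lay 0.24 above BT (log2, adjusted p = 0.0251 from limma) with overlapping arrays. Il6r was called higher in RMVs than in RT at 1.01 (log2, standard error 0.0992, adjusted p = 1.30e-09 from limma), a call at the edge of the threshold that ended under quantile normalization (0.52) and centring (0.36) and without single arrays (0.95 without RMV array 6, 0.97 without RT array 1, 0.98 without RMV array 4). In BMVs against BT it was called at 1.51 (adjusted p = 1.30e-13 from limma), 2.85-fold, with 1.25 after quantile normalization and 0.90, below the threshold, after centring.

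Il6r was the only one of the 8 genes called between both kinds of microvessels. RMVs lay 1.27 below BMVs (log2, adjusted p = 1.73e-11 from limma) with no overlap. RT lay 0.76 below BT (adjusted p = 1.33e-07 from limma), also with no overlap but below 2-fold, and centring of the arrays brought this to -1.03 and past it. Enrichment differed by -0.50 between the organs (adjusted p = 0.00310 from limma). The fibroblast, macrophage and microglia genes were lower in RMVs as well, with 7 of 10, 7 of 7 and 6 of 8 called lower than in BMVs. So were 5 of 6 oligodendrocyte, 5 of 7 astrocyte, 3 of 7 leukocyte and 4 of 12 endothelial genes. Lower too were 2 of 10 pericyte, 1 of 6 smooth muscle and 1 of 10 neuron genes. The median log2 difference was -0.78 for endothelial, -0.48 for pericyte and -0.86 for smooth muscle genes, beside 0.08 over all genes. Called higher in RMVs were 8 of 8 photoreceptor, 3 of 10 neuron, 1 of 6 Müller glia and 1 of 12 endothelial genes. The pigment epithelium and choroid plexus list had 4 of 7 higher and 1 lower. In BMVs against BT, 0 of 8 microglia genes were called higher and 1 lower, unlike Il6r. The mean of the 8 microglia genes was 6.81 to 7.08 in RMVs and 8.34 to 8.64 in BMVs. The part of any of these cells in the difference of Il6r was not tested.

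Il11ra1, the IL-11 receptor, varied least. In RMVs its lowest, median and highest signal was 7.75, 7.84 and 7.92, and in RT it was 7.70, 7.81 and 7.90. It was 7.99, 8.15 and 8.26 in BMVs and 7.33, 7.57 and 7.79 in BT. The retinal groups overlapped nearly throughout, and the BMV arrays lay above all others. The log2 fold change was 0.01 in RMVs against RT (adjusted p = 0.848 from limma), where the 95% interval was -0.12 to 0.15, and both other scalings made it negative (-0.49 and -0.63). In BMVs against BT it was 0.58 (adjusted p = 1.56e-08 from limma), below 2-fold and at -0.03 after centring. RMVs lay 0.32 below BMVs (adjusted p = 1.76e-04 from limma) and enrichment differed by -0.56 between the organs (adjusted p = 1.45e-05 from limma), both short of 2-fold.

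Cntfr ran against the other receptors. Its lowest, median and highest signal was 9.49, 9.84 and 10.25 in RMVs and 10.32, 10.62 and 10.83 in RT. In BMVs it was 8.75, 9.05 and 9.20, and in BT 10.62, 10.71 and 10.75. Every microvessel array lay below every tissue array of its organ. Cntfr was called lower in BMVs than in BT, at -1.70 (log2, adjusted p = 7.65e-15 from limma), under all 3 scalings (-1.63 after quantile normalization and -2.31 after centring). In RMVs against RT the value of -0.73 (adjusted p = 2.59e-07 from limma) stayed within 2-fold, and centring took it to -1.38 and past the threshold.

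The difference of Cntfr between the organs lay in the microvessels. RT differed from BT by -0.10 (adjusted p = 0.347 from limma), with a sign that quantile normalization turned (0.22), whereas RMVs lay 0.87 above BMVs (adjusted p = 1.84e-08 from limma), below 2-fold and with no overlap. The difference in enrichment was 0.97 (adjusted p = 1.11e-06 from limma), the only positive one among the 8 genes and just under the threshold, which it passed without RMV array 6 (1.04), RT array 1 (1.02) or BMV array 2 (1.01). The neuron genes moved in the same way against tissue, with 10 of 10 called lower in BMVs than in BT and 4 of 10 in RMVs than in RT. Their difference in enrichment was positive and called for 10 of 10. Unlike Cntfr, 6 of 10 neuron genes were called lower in RT than in BT, with a median of -1.26 (log2). Between RMVs and BMVs, 3 of the 10 neuron genes were called higher and 1 lower, with a median of 0.43. Their part in the Cntfr values was not tested.

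Stat3, the transcription factor that the receptors activate, was called in the brain and not in the retina. The signal reached at the lowest, median and highest array 10.28, 10.39 and 10.76 in RMVs and 9.56, 9.73 and 10.40 in RT. In BMVs it was 10.65, 10.74 and 10.76, and in BT 9.17, 9.22 and 9.31. RMVs and RT overlapped through a single RT array, number 5, whose 10.40 stood against 9.56 to 9.75 in the others. The log2 fold change was 1.49 in BMVs against BT (adjusted p = 2.54e-13 from limma), 2.81-fold, and 0.88 and below the threshold after centring. In RMVs against RT it was 0.67 (adjusted p = 1.81e-06 from limma), and 0.73 without both retinal arrays numbered 5. Enrichment differed by -0.83 between the organs (adjusted p = 1.80e-05 from limma), and RT lay 0.56 above BT (adjusted p = 1.91e-05 from limma) with no overlap, both below 2-fold. RMVs lay 0.26 below BMVs (adjusted p = 0.0236 from limma) with overlap.

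Socs3, the feedback inhibitor, passed the fold threshold in neither organ. Its lowest, median and highest signal was 5.95, 6.14 and 6.61 in RMVs and 5.30, 5.34 and 5.78 in RT. It was 6.07, 6.26 and 6.46 in BMVs and 5.33, 5.36 and 5.47 in BT. All microvessel arrays lay above all tissue arrays. The mean levels in RT (5.42) and BT (5.39), on which the comparisons with tissue rest, are not shown to be above background. The log2 fold change was 0.79 in the retina (adjusted p = 4.87e-08 from limma) and 0.87 in the brain (adjusted p = 4.29e-09 from limma), and it shrank to 0.16 and 0.24 under quantile normalization. RMVs and BMVs differed by -0.05 (adjusted p = 0.656 from limma) and RT and BT by 0.03 (adjusted p = 0.764 from limma), which turned to -0.29 after quantile normalization, -0.23 after centring and -0.04 without both retinal arrays numbered 5. The difference in enrichment was -0.08 (adjusted p = 0.614 from limma), with a 95% interval of -0.36 to 0.19.

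The arrays numbered 5 had a particular place among these genes. Osmr, Il6st, Stat3 and Socs3 were each highest in array 5 of RMVs and in array 5 of RT, which holds for 4.77% of all genes. The other members did not share this. Lifr and Il6r were lowest in RMV array 5, and Il11ra1 and Cntfr were lowest in RT array 5, where Lifr was highest. Osmr was at 10.62 in RMV array 5, against 9.76 to 10.40 in the others, and at 6.90 in RT array 5, against 5.73 to 6.45. Socs3 was at 6.61 against 5.95 to 6.32 in RMVs and at 5.78 against 5.30 to 5.45 in RT. For each other number 0 of the 8 genes and 2.17% to 2.99% of all genes were highest in both retinal groups, and in the brain groups number 5 was highest in both for 0 of the 8. Beside these genes, the mean of 7 genes of pigment epithelium and choroid plexus was 8.20 in RMV array 5, against 7.37 to 7.70, and 8.73 in RT array 5, against 7.28 to 7.86, and the part of such tissue in the receptor signals was not tested. Without both arrays Osmr was at 4.06, Lifr at 1.44 and Il6r at 1.06 in RMVs against RT (log2 fold change), and these 3 genes were still called. In RT against BT, leaving them out took Osmr from 0.77 to 0.63, Il6st from 0.44 to 0.40 and Stat3 from 0.56 to 0.44.

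**Figure D3:**
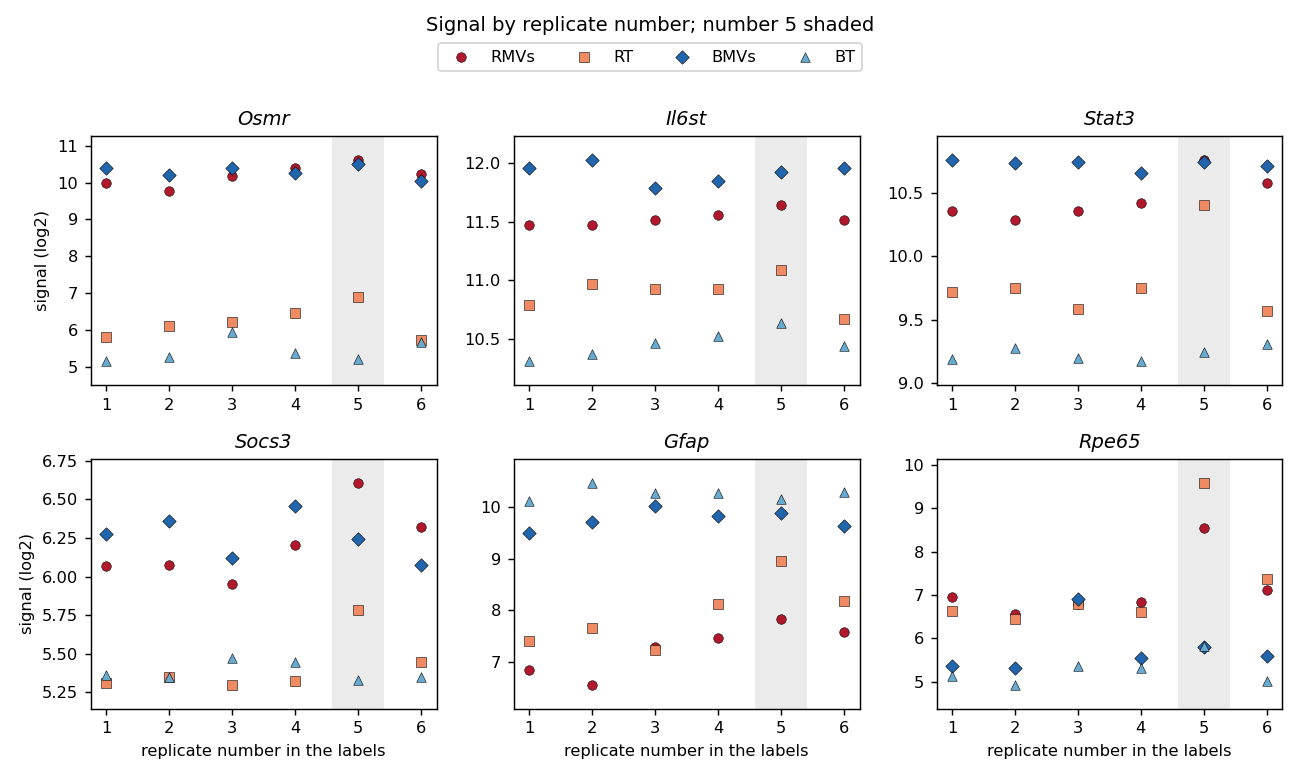
Signal (log2) of Osmr, Il6st, Stat3, Socs3, Gfap and Rpe65 by the replicate number in the labels, with number 5 shaded and the 4 groups by colour and shape; the vertical axes differ and do not start at 0. In RT the Stat3 signal of number 5 is 10.40 and the others lie at 9.56 to 9.75, and the Rpe65 signal is 9.57 in RT number 5, 5.80 in BMV number 5 and 5.82 in BT number 5.

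The ligands of the family gave little contrast. Of 11 listed, 10 were measured and 5 of them lay above the first quartile of signals. In RMVs against RT 0 of 10 were called, and Ctf1 (cardiotrophin 1) was called in BMVs against BT, at 1.17 (log2), a call that ended under both other scalings (0.61 and 0.56). Osm, the ligand of Osmr, averaged 7.35 ± 0.18 in RMVs and 6.82 ± 0.18 in RT (log2 signal, SD, n = 6). In BMVs it was 6.96 ± 0.28 and in BT 6.61 ± 0.21 (SD, n = 6), with log2 fold changes of 0.53 and 0.35. Lif was at 0.85 and 0.79, Clcf1 at 0.96 and 0.89 and Cntf at 0.90 and 0.45 in the retina and brain. Il6 was at 0.13 and 0.58, Il11 at 0.53 and 0.59, Ctf2 at 0.57 and 0.52, Il31 at 0.14 and 0.43 and Ebi3 at -0.03 and -0.58. The median of the list was 0.55 in both organs, and after quantile normalization it was -0.07 in the retina and -0.03 in the brain.

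Among related receptors 4 of 8 were measured, and 2 of these, Il27ra and Csf3r, lay above the first quartile of signals. Il12rb2, a gp130-like chain of the IL-12 receptor, was called higher in BMVs than in BT at 2.50 (adjusted p = 2.79e-15 from limma), with 6.46 ± 0.26 in BMVs and 3.96 ± 0.18 in BT (SD, n = 6). In RMVs it was 5.35 ± 0.29 and in RT 4.43 ± 0.28 (SD, n = 6). The levels in RMVs, RT and BT are not shown to be above background. The log2 difference of 0.91 between RMVs and RT was below the threshold, and was 1.02 and called without both retinal arrays numbered 5. The difference in enrichment of Il12rb2, which rests on these levels, was called at -1.59 (adjusted p = 9.17e-08 from limma). Il27ra (0.68 and 0.60), Il31ra (0.68 and 0.77) and Csf3r (0.54 and 0.10) were not called in either organ. The sheddase gene Adam17, whose enzyme can release the IL-6 receptor from the cell surface, was called higher at 1.21 in the retina and 1.71 in the brain, and the retinal call ended under both other scalings.

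Of the kinases, STATs and adaptors, 13 of 15 were measured, with 3 called higher in RMVs than in RT and 6 in BMVs than in BT and 0 lower, beside 10.3% and 16.3% of all genes called higher. Stat6, which serves the IL-4 receptor, was at 1.56 and 1.97, and the adaptor Shc1 at 1.01 and 2.29. The docking protein gene Gab1 was called in the retina (1.23) and not in the brain (0.87), while Stat5a (1.72) and Jak3 (1.62), a kinase of leukocyte receptors, were called in the brain and not in the retina (0.21 and 0.46). Of these calls, 0 of 3 in the retina and 4 of 6 in the brain held under both other scalings. Jak1, the main kinase on gp130, had log2 differences of 0.27 in the retina and -0.08 in the brain, and Jak2 of -0.05 and -0.00147. Of 14 measured inhibitors 0 were called in the retina and 1 in the brain, Pias3, an inhibitor of STAT3, at 1.14, a call that ended under both other scalings (0.84 and 0.53).

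Of 30 genes known to respond to IL-6 family cytokines or to acute inflammation, 26 were measured, 21 of them above the first quartile of signals. In the retina 8 were called higher in microvessels and 0 lower, and in the brain 12 and 0, beside 10.3% and 16.3% of all genes called higher. Of these calls 2 in the retina (Il1r1 and Il4r) and 8 in the brain held under both other scalings. Il1r1, the receptor of interleukin-1, was at 8.94 ± 0.14 in RMVs and 6.07 ± 0.33 in RT (SD, n = 6), a log2 fold change of 2.88. The brain groups lay farther apart, at 9.89 ± 0.09 in BMVs and 5.78 ± 0.33 in BT (SD, n = 6), a log2 fold change of 4.11. Il4r followed with 1.82 and 2.32. In the retina Steap4 (1.54) and Vcam1 (1.26), an adhesion molecule for leukocytes, came next, and in the brain Timp1 (2.91), an inhibitor of matrix proteases, and Lbp (2.44), which binds lipopolysaccharide. The tissue levels behind 3 of these values are not shown to be above background, with Steap4 at 5.21 in RT, Timp1 at 3.73 in BT and Lbp at 5.07 in BT. The median of the list was 0.62 in the retina and 0.88 in the brain.

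The response genes did not run alike in both organs. The difference in enrichment was called lower in the retina for 6 of 26 genes and higher for 1, beside 5.15% and 10.4% of all genes. The 6 were Cp (-2.81), Timp1 (-1.97), Lcn2 (-1.87), Lbp (-1.32), Il1r1 (-1.23) and Cd14 (-1.02), and the gene called higher was Steap4 (1.11). For Timp1, Lbp and Steap4 in both tissues and for Lcn2 in BT the levels are not shown to be above background. In RT they were 5.33 for Timp1, 4.88 for Lbp and 5.21 for Steap4. The call of Il1r1 ended under quantile normalization (-0.99), and the other 6 held under both other scalings. Lcn2, an acute phase gene, spread widely within BMVs, with a lowest, median and highest signal of 6.40, 8.15 and 8.94 in BMVs and 5.36, 5.49 and 5.63 in BT. Gfap, a target of STAT3 in glia, was not called in either organ on the deposited scale (-0.66 and -0.51).

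**Figure D4:**
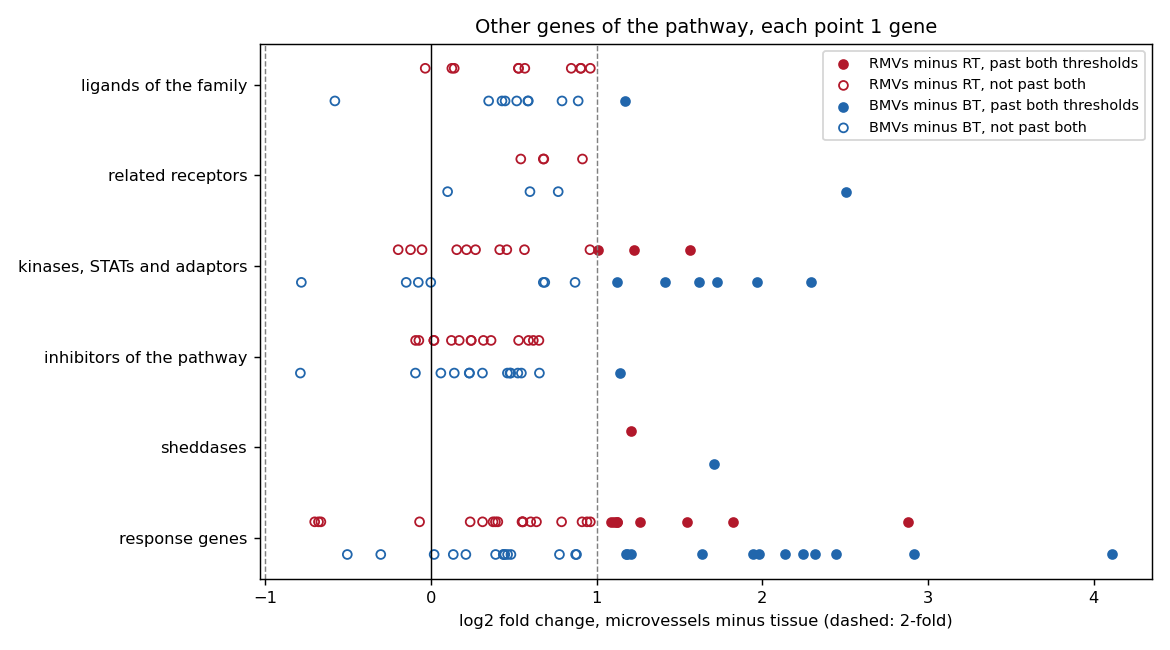
Log2 fold change of each measured gene of 6 pathway lists in RMVs against RT (red) and BMVs against BT (blue), filled where the gene passed both thresholds; dashed lines mark 2-fold. In the response genes 8 red and 12 blue points are filled, and among ligands the filled point is Ctf1 in the brain, at 1.17.

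Immediate early genes, which cells switch on quickly after a stimulus, were counted beside the pathway. Of 17 measured, 4 were called higher and 0 lower in the retina, and 7 higher and 3 lower in the brain, beside 10.3% higher and 0.947% lower over all genes in the retina and 16.3% and 10.5% in the brain. Of these calls 2 in the retina and 6 in the brain held under both other scalings. Klf4, a transcription factor also made by resting endothelium, was at 3.13 and 3.50, and Klf2 at 2.26 and 2.99. Genes induced by many stimuli were also called higher, with Ier2 at 1.32 in the retina and 2.94 in the brain, Egr1 at 1.22 in the retina, and Atf3 (1.49), Ier3 (1.30), Dusp1 (1.23) and Zfp36 (1.04) in the brain. Of these, Ier2 in the brain was called under both other scalings, and each other call ended under both. The BT levels of Ier2 (5.17) and Atf3 (5.26) are not shown to be above background. Arc (-2.32), Egr3 (-1.40) and Egr2 (-1.19), genes of active neurons, were lower in BMVs than in BT. The part of this response in the signals of Socs3 and Stat3 was not tested.

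Patterns across the 24 arrays were compared by the root mean square (RMS) difference of signals after centring each gene on its own mean, with small values for like patterns. Most like Osmr were Ifitm1, an interferon-induced gene (0.396), Slc38a5, an amino acid carrier (0.414), and Ptgis, the prostacyclin synthase (0.428). For Stat3 the gene most like it of all 18166 was Il6st (0.152), followed by Ino80d (0.156) and Gstm4 (0.159). Rock1 (0.169), Sgms1 (0.170) and P3h1 (0.170) were most like Lifr, and Gxylt1 (0.118), Ino80d (0.132) and Vasn (0.133) most like Il6st. Golm1 (0.185), Gab2 (0.192) and Usp53 (0.193) were most like Il6r, and Galnt14 (0.159), Ccdc181 (0.162) and Gnao1 (0.167), a G protein subunit of neurons, most like Cntfr. For Il11ra1 they were Mga (0.104), Bcap31 (0.114) and Gba2 (0.117), and for Socs3 Acadvl (0.147), Prx (0.148) and Dazap1 (0.149). The values depend on the deposited levels of the arrays and describe these 24 arrays alone.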

How the data were processed

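RMVs, RT, BMVs and BT were each measured on 6 arrays, assigned by their labels. The authors amplified 1 ng of RNA per sample, normalized the arrays in Affymetrix Expression Console (version 4.0) and deposited log2 signals; the method of normalization and summarization is not given in the sources used here. The values were used as deposited. Of 36685 transcript clusters, 18511 had a single symbol in the platform annotation (18394 of them matched by Entrez ID), 575 had several and 17599 had none. The cluster with the highest mean was kept for each of 291 genes with several, which left 18166 genes. Each of the 8 genes had 1 cluster.

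All 4 groups entered a limma model (limma 3.58.1, R 4.3.3, prior degrees of freedom 5.73) without a block, with two-sided tests and Benjamini-Hochberg adjustment over all 18166 genes. Calls required a log2 fold change of 1 or more in either direction with an adjusted p below 0.05. The table gives no detection call, and the number of arrays limits the precision. The scripts were tested on simulated data. Promoters were from RefSeq (GRCr8). The members and gene lists were chosen with earlier results of these data known. Named are all 8 members, all measured ligands, related receptors and sheddases, the 4 largest called changes of other lists in RMVs against RT and in BMVs against BT, called genes that ran against their list, and 3 genes per member of the most like pattern. Jak1, Jak2, Gfap and Rpe65, the arrays numbered 5 and a few further list genes were singled out after their values were seen. Alternatives were quantile normalization, centring, the mean of clusters, removal of dim genes, fits restricted to both groups of a contrast, a replicate block, trend and robust eBayes, array weights, treat, a 1.5-fold threshold and leaving out arrays.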

Additional observations from a re-analysis of the deposited data

Results flagged for a closer look

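In 32 groups of 6 arrays (8 genes in 4 groups) a single array lay far from the others in 5, and chance flags about 5% of such groups. Of these, 3 concern Lifr, at 10.54 in RMV array 5, 9.41 in RT array 1 and 11.47 in BMV array 6, each the lowest of its group. The other 2 are the highest of their group in the same RT array, number 5, with 5.78 for Socs3 and 10.40 for Stat3.

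The enrichment of Lifr in microvessels differed between the organs at -1.01 (log2, retina minus brain) by the interaction term in limma. It was -0.88 without both retinal arrays numbered 5, below the threshold. This value rests in part on the low RMV array 5 named above, and its cause was not tested.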

How the results depend on the processing

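The calls of the 8 genes were unchanged for all 5 comparisons under the mean of all clusters, the removal of dim genes, eBayes with trend and robust and the replicate block, and for the 4 pairs of groups in a fit of the compared groups alone. These fits could not move the fold changes of the 8 genes. Each gene has 1 cluster and lies above the first quartile, and every group holds all replicate numbers. Only the adjusted p could move, so the unchanged calls say little about how firm they are. Genes called higher made up 91.6% of calls in RMVs against RT on the deposited scale, 50.4% after quantile normalization and 26.2% after centring, and in BMVs against BT 60.9%, 42.4% and 26.5%. In RMVs against BMVs they made up 52.2%, 40.7% and 26.6%, and in RT against BT 36.1%, 35.3% and 20.5%. Centring left 3 of the 8 genes called in BMVs against BT and 1 in RT against BT. Signs turned under quantile normalization for Il11ra1 in RMVs against RT (-0.49), Osmr in RMVs against BMVs (0.020), and in RT against BT for Cntfr (0.22) and Socs3 (-0.29). Centring turned Il6st (-0.00889) and Il11ra1 (-0.63) in RMVs against RT, Il11ra1 in BMVs against BT (-0.034), and in RT against BT Il11ra1 (-0.022) and Socs3 (-0.23). At 1.5-fold, 7 genes were called in RMVs against RT, 3 in RMVs against BMVs, 2 in RT against BT and 5 for the difference in enrichment, beside 34.6%, 27.8%, 35.4% and 34.4% of all genes in either direction. With limma's treat at 2-fold, 0 were called in RMVs against BMVs and 0 for the difference, and Il6r was lost in RMVs against RT. Array weights left 0 for the difference (Lifr at -0.97), as did leaving out both retinal arrays numbered 5, an alternative added after seeing the data, which also turned Socs3 in RT against BT (-0.040). Leaving out each array in turn gave 2 to 3 calls in RMVs against RT, 6 to 6 in BMVs against BT, 1 to 1 in RMVs against BMVs, 0 to 0 in RT against BT and 0 to 2 for the difference. The sign turned in such fits for Il11ra1 in RMVs against RT (-0.00787 to 0.032), Socs3 in RMVs against BMVs (-0.13 to 0.000213) and Socs3 in RT against BT (-0.040 to 0.057). The cause of these changes was not tested.

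The samples came from 6 rats, but the labels do not say what a replicate number stands for, so the numbers were not taken to pair the samples. Not every same-number correlation of deviations from group means exceeded 0.1. Over genes the medians of these correlations were 0.04 to 0.06 and the lowest was -0.085. The medians for unlike numbers were -0.017 to -0.0051, below the same-number median in every pair of groups. If the numbers do stand for rats, the main fit leaves this pairing out. For RMVs and RT the same-number correlations were 0.036 to 0.150, against a median of -0.0051 for unlike numbers, and 5 of 6 arrays correlated best with their own number, a hint from the data that these numbers may be shared. With the replicate block the counts of called members stayed at 3, 6, 1, 0 and 1 for the 5 comparisons. Because every group holds all numbers, the block alters the standard errors and not the fold changes. These counts therefore do not show whether the numbers stand for rats.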
